A study of Mus musculus with 10 samples.

Results

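A set of 35 genes that mark neurons and progenitors of the hindbrain and spinal cord was followed through RNA sequencing of mouse trigeminal ganglia. The set was a list of gene symbols, matched by Ensembl identifier to 35 of the 55414 genes counted. It holds 13 progenitor and regional patterning factors (Pax6, Pax7, Olig1, Olig2, Olig3, Nkx2-2, Nkx6-1, Dbx1, Atoh1, Ptf1a, Gbx2, Zic1 and Zic2). A further 17 are factors of differentiating interneurons (Pax2, Pax8, Lhx1, Lhx2, Lhx5, Lhx9, Lbx1, En1, En2, Evx1, Evx2, Barhl1, Barhl2, Lmx1b, Skor1, Skor2 and Dmrt3). The other members are 4 genes of GABA and glycine transmission (Gad1, Gad2, Slc32a1 and Slc6a5) and the choroid plexus gene Ttr. The tissue was trigeminal ganglion of C57Bl6 embryos at E13.5 (embryonic day), with 5 libraries of genotype Prdm12-/- (knockout 16, 29, 42, 49 and 50) and 5 of genotype Prdm12+/+ (wild type 22, 24, 32, 35 and 45). Both groups carry the label Sox10 Venus+, no cell sorting is named, and the loss of Prdm12 is described as constitutive. Neither the extent of the deletion nor the use of a separate embryo per library is stated, and p-values therefore reflect the scatter among these samples, part of which may be technical. The titles open with a different letter in each genotype, and any handling that the letter stands for cannot be told apart from genotype.

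The trigeminal ganglion is a sensory ganglion of the head whose neurons come from neural crest and placodes, and its central root enters the hindbrain. In the developing hindbrain and spinal cord, dorsoventral domains of progenitors are set up by factors such as Olig3, Dbx1 and Nkx6-1, and each domain gives rise to interneurons that switch on combinations of homeodomain factors such as Lbx1, Pax2, Lhx1 and Lhx5. Many of these interneurons use GABA or glycine, whereas the sensory neurons of the ganglion are mainly glutamatergic. Several members also have known sites outside the central nervous system: Pax2, Pax8 and Gbx2 in the inner ear, Pax7 and Lbx1 in muscle precursors, and Lmx1b, En1, Zic1 and Zic2 in mesenchyme or meninges of the head.

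Total counts were 3258008 in knockout 49, 13603690 in knockout 29 and 27308327 to 33556002 in the other 8 libraries. Levels are given as CPM, counts scaled to a common library total with TMM factors, and are compared within a gene. At 3 counts, a level was worth 0.869 CPM in knockout 49 and 0.236 CPM in knockout 29, with 0.0889 to 0.107 CPM elsewhere, and lower levels rest on fewer than 3 counts. Prdm12 lay between 8.74 and 42.7 CPM in the knockout and between 74.3 and 264 CPM in the wild type, and it was called lower (log2 fold change -3.32, adjusted p = 0.0156). Several libraries stood apart from the rest of their group. A list of 12 mesenchyme and meninges genes summed to 731 and 1042 CPM in wild type 32 and 35 against 3052 to 11077 CPM elsewhere, 10 pituitary and oral epithelium genes reached 502 CPM in knockout 49 (10.2 to 85.8 CPM elsewhere), and Sox10 reached 3764 CPM in knockout 29 (390 to 1375 CPM elsewhere). The labelled tissue carried its markers, since 12 sensory ganglion neuron genes summed to between 4050 and 10551 CPM in every library.

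The promoters of 4 members are shown, as the 250 bases before the start of the gene on its own strand, in RefSeq on GRCm38.p6. All 4 were highest in knockout 16 and lowest in wild type 32 and 35. Lhx1 and Gad2 stand for the genes at least 3 times higher in knockout 16 than in the next library. Nkx6-1 stands for those whose genotypes did not overlap, and Zic1 for those that were abundant in most libraries. Capitals mark CpG dinucleotides.

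Lhx1, chr11:84525535-84525784, minus strand: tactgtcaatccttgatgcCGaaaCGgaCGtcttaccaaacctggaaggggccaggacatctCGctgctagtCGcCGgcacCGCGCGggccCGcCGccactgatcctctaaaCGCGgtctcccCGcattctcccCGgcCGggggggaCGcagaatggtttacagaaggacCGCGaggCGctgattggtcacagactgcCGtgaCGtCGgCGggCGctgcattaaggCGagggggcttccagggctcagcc

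Gad2, chr2:22622077-22622326, plus strand: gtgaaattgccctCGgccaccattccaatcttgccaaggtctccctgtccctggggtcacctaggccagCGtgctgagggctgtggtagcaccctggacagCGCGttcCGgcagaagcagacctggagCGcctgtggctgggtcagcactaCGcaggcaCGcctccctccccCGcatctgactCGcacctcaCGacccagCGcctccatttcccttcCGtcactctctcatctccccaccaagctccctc

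Nkx6-1, chr5:101664712-101664961, minus strand: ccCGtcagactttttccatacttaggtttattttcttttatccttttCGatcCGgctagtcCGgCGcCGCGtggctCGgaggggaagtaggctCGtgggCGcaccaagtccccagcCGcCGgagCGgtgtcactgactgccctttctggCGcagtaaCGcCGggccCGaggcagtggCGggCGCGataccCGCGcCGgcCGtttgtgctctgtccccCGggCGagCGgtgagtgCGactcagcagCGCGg

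Zic1, chr9:91365769-91366018, minus strand: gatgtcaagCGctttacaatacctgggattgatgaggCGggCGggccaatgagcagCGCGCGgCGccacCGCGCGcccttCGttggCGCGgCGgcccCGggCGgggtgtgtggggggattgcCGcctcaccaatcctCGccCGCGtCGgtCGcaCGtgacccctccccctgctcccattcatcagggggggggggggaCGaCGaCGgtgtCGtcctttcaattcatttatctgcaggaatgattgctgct

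These windows hold 26 CpG dinucleotides in Lhx1, 13 in Gad2, 30 in Nkx6-1 and 27 in Zic1. RefSeq gave a promoter window for 28 of the 35 members, and where a gene had several starts, as 6 of them had, the first listed was used. The members' windows held a median of 14 CpG and 61.2% GC, against 6 CpG and 52% GC over 27025 genes, and 24 of the 28 lay above the median of all genes in CpG number. The homeodomain core TAATTA was found on either strand in none of the 28 windows and in 4.90% of all windows. The E-box CAGCTG was in 2 (Gbx2 and Barhl1), which is 7.14% against 12.8% of all windows. The TATA-type word TATAAA was in 5 (Gad1, Evx2, Dbx1, Olig3 and Olig2), which is 17.9% against 13.0%. These are letter matches in a short window and say nothing of binding.

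The comparison of knockout with wild type asked whether any of these genes differed with the loss of Prdm12. None of the 26 members that passed the filter on low counts was called in either direction by edgeR's quasi-likelihood test at an adjusted p under 0.05. Over all 18005 genes tested, 0.0944% were called higher and 0.372% lower in the knockout. The smallest adjusted p of a member was 0.0517, for Skor2. Without adjustment, 8 members had a p under 0.05, each with a higher level in the knockout (Pax6, Nkx6-1, En2, Dbx1, Evx2, Barhl1, Zic2 and Skor2), beside 13.1% of all genes in either direction. The estimated log2 fold change lay above 0 for 24 members and below 0 for En1 and Ttr, with a median of 1.89 over the 26 and of -0.03 over all genes tested. The median SE was 1.20, and most of these estimates lay within 2 SE of 0. Where the RNA of many cells is pooled, more cells of a type and more RNA per cell cannot be told apart.

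The 9 members that failed the filter were Olig1, Olig2, Olig3, Nkx2-2, Atoh1, Ptf1a, Barhl2, Gbx2 and Dmrt3. Of these, Nkx2-2, a factor of the most ventral neural progenitors, had 9 counts over the 10 libraries together. Ptf1a, which directs dorsal and cerebellar progenitors to an inhibitory fate, had 13, and Dmrt3, a factor of a commissural interneuron class, had 14. Olig1, a factor of oligodendrocyte precursors, reached at most 1.58 CPM, in wild type 45. The remaining 5 had clear counts in knockout 16 and are described with the other genes of their role.

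The genotypes overlapped for 33 of the 35 members, and knockout 16 carried most of the spread. It was the highest of the 10 libraries for 25 of the 35 members, and it was at least 3 times the next library for 18 of them. Of the 29 members with a mean of at least 1 CPM, 22 were highest in knockout 16. Among 15551 other genes with a mean of at least 1 CPM, 7.02% were highest in that library. Measured as a share of each member's CPM over all libraries, knockout 16 held a median of 53.4%. The same share was 9.65% in wild type 24, 7.02% in wild type 45, 6.13% in knockout 49, 6.04% in knockout 50 and 5.12% in knockout 29. It was 2.18% in wild type 22, 0.524% in knockout 42, 0.245% in wild type 32 and 0.213% in wild type 35. Levels of at least 1 CPM were reached by 29 members in knockout 16 and by 24 in wild type 24. In knockout 42 the number was 5, and in wild type 32 and in wild type 35 it was 4, so libraries of both genotypes lay at both ends of the range.

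**Figure D1:**
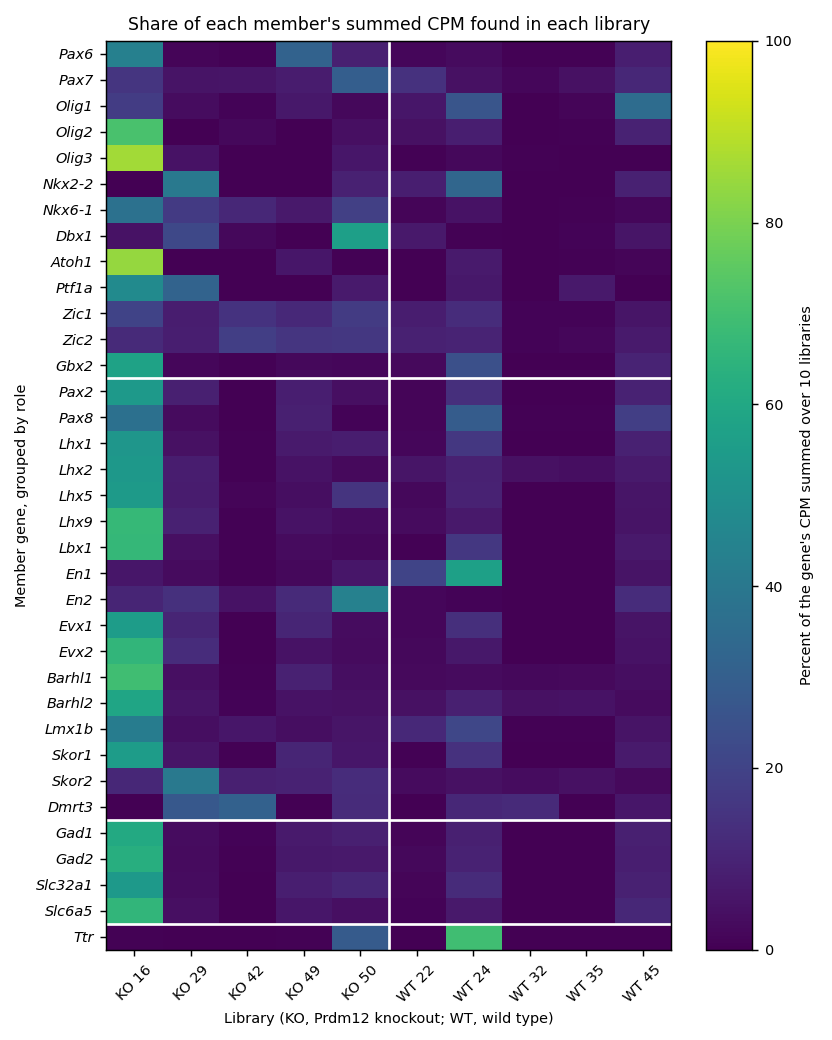
Share of each member's summed CPM (percent, colour) held by each of the 10 libraries (columns), with 1 row per member. Brighter colour is a higher share. The knockout 16 column is brightest for 25 of 35 rows, while Ttr and En1 are brightest in wild type 24, Skor2 in knockout 29 and Zic2 in knockout 42.

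Among the factors of differentiating interneurons, Pax2 (ENSMUSG00000004231), which is needed for the inhibitory identity of dorsal interneurons, stood at 53.6, 8.89, 0.178, 8.40 and 4.05 CPM in the knockout libraries and 1.17, 13.4, 0.208, 0 and 9.58 CPM in the wild-type libraries, here and below in the order in which the libraries were introduced. The genotypes overlapped over their whole range: knockout 16 was highest, wild type 24 was next, and knockout 42, wild type 32 and wild type 35 were near 0. The estimate was higher in the knockout but within its error (log2 fold change 1.64, SE 1.36, edgeR adjusted p = 0.605). Lhx1 (ENSMUSG00000018698), a LIM homeodomain factor that acts with Pax2 in inhibitory interneurons, stood at 35.7, 2.99, 0.320, 4.92 and 5.49 CPM in the knockout libraries and 1.07, 11.03, 0.242, 0 and 6.34 CPM in the wild-type libraries. It repeated the order of Pax2 at both ends, with knockout 16 above wild type 24 and 4 libraries at or below 1.07 CPM. Its relative Lhx5 stood at 21.3, 3.07, 0.462, 1.45 and 5.94 CPM in the knockout libraries and 0.901, 3.80, 0.0346, 0.0683 and 2.22 CPM in the wild-type libraries, and there knockout 50 followed knockout 16.

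Lbx1, a factor that separates classes of dorsal interneurons from one another, stood at 34.0, 2.05, 0.249, 1.45 and 1.05 CPM in the knockout libraries and 0.267, 8.34, 0.104, 0.0341 and 3.59 CPM in the wild-type libraries. Knockout 16 was 4.08 times wild type 24, and no other library passed 3.59 CPM. Skor1, a corepressor that is found with Lbx1 in dorsal interneurons, stood at 58.9, 5.98, 0.427, 11.003 and 6.39 CPM in the knockout libraries and 0.667, 15.1, 0.242, 0.137 and 7.53 CPM in the wild-type libraries. Like Lbx1, it was highest in knockout 16 and then in wild type 24, and it was below 1 CPM in 4 libraries of both genotypes. Evx1, which marks commissural interneurons of the V0 class, stood at 23.5, 4.48, 0.107, 4.34 and 1.36 CPM in the knockout libraries and 0.667, 5.75, 0.104, 0 and 2.22 CPM in the wild-type libraries. Its neighbour in the genome, Evx2, reached 8.03 CPM in knockout 16. Pax8 differed in that knockout 16, at 4.83 CPM, was close to wild type 24, at 3.84 CPM, and wild type 45, at 2.43 CPM, and its estimate was near 0 (log2 fold change 0.03, SE 1.25).

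The genes of the most dorsal interneuron class were highest in knockout 16 by a wide margin. Atoh1, which marks the progenitors of that class and of cerebellar granule cells, was at 12.4 CPM in knockout 16 and at 1.05 CPM in wild type 24, the next highest library. Barhl1, which is switched on after Atoh1, stood at 17.6, 1.02, 0.178, 2.32 and 0.909 CPM in the knockout libraries and 0.634, 0.735, 0.520, 0.614 and 0.915 CPM in the wild-type libraries. Knockout 16 was 7.61 times the next library, and the other 9 libraries lay between 0.178 and 2.32 CPM. Barhl2 was at 3.62 CPM in knockout 16, which was 6.65 times the next library. Lhx9, which is found in the same class, stood at 46.1, 6.22, 0.285, 3.47 and 2.17 CPM in the knockout libraries and 1.90, 4.73, 0.208, 0.137 and 3.52 CPM in the wild-type libraries. Its relative Lhx2 stood at 58.5, 8.97, 0.605, 5.21 and 2.94 CPM in the knockout libraries and 6.34, 9.85, 5.09, 4.23 and 7.82 CPM in the wild-type libraries. Lhx2 kept a level of 4.23 CPM or more in all 5 wild-type libraries, whereas Lhx9 was at 0.208 and 0.137 CPM in wild type 32 and 35.

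Lmx1b, a LIM homeodomain factor of dorsal excitatory and serotonergic neurons that is also found in head mesenchyme, stood at 40.8, 3.78, 5.76, 3.47 and 5.52 CPM in the knockout libraries and 11.2, 20.6, 0.416, 0.649 and 5.07 CPM in the wild-type libraries. After knockout 16, the highest levels were in wild type 24 and wild type 22. En1, a factor of the midbrain-hindbrain boundary and of V1 interneurons that is also found in skin and mesenchyme, stood at 0.830, 0.393, 0.0711, 0.290 and 0.839 CPM in the knockout libraries and 2.84, 7.90, 0, 0 and 0.739 CPM in the wild-type libraries. It was among the few members that were higher in wild-type libraries, with the same wild type 24 and 22 on top, and the genotypes overlapped (log2 fold change -2.13, SE 1.27, edgeR adjusted p = 0.481). Prrx1, a mesenchyme factor singled out after its values were seen, was highest in the same libraries, where wild type 22 had 360 CPM and wild type 24 had 311 CPM, with 10.3 to 142 CPM elsewhere. The whole list of 12 mesenchyme and meninges genes ran otherwise, with its highest sum in knockout 42, at 11077 CPM, and 6282 and 6052 CPM in wild type 22 and 24. The part of mesenchyme in the levels of En1 and Lmx1b was not tested.

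The genes of inhibitory transmission followed the interneuron factors. Gad1 (ENSMUSG00000070880), which makes GABA from glutamate, stood at 38.9, 2.12, 0.605, 4.63 and 5.66 CPM in the knockout libraries and 0.801, 5.56, 0.104, 0.137 and 5.67 CPM in the wild-type libraries. Gad2 (ENSMUSG00000026787), the second enzyme of that step, stood at 42.6, 2.05, 0.356, 4.34 and 4.58 CPM in the knockout libraries and 1.501, 6.55, 0.208, 0.0341 and 5.63 CPM in the wild-type libraries. For both, knockout 16 was more than 6 times the next library, and knockout 42, wild type 32 and wild type 35 lay below 1 CPM. Slc32a1, the vesicular transporter of GABA and glycine, was at 18.7 CPM in knockout 16 and 4.28 CPM in wild type 24. Slc6a5, the glycine transporter of glycinergic neurons, stood at 28.0, 1.81, 0.142, 2.61 and 1.75 CPM in the knockout libraries and 0.400, 2.88, 0.104, 0.0683 and 4.72 CPM in the wild-type libraries. All 4 were highest in knockout 16, their estimates were between 1.76 and 2.10 on the log2 scale, and their adjusted p-values were 0.468 or more. The 4 genes together summed to 128 CPM in knockout 16 and to between 0.239 and 19.3 CPM in the others.

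Among the progenitor factors, Olig3, which marks dorsal progenitors, reached 13.8 CPM in knockout 16. The next library was 14.7 times lower, and wild type 24 had 0.352 CPM from 11 counts. Olig2, the factor of motor neuron and oligodendrocyte progenitors, was at 4.95 CPM in knockout 16, which was 7.40 times the next library. Gbx2, which sets the front of the hindbrain, was at 8.51 CPM in knockout 16 and at 3.58 CPM in wild type 24. Pax6, a factor of progenitors in much of the neural tube and in the eye and pituitary primordium, stood at 21.99, 0.708, 0.285, 15.9 and 4.47 CPM in the knockout libraries and 0.834, 1.41, 0.277, 0.307 and 4.19 CPM in the wild-type libraries. Unlike the interneuron factors, its level in knockout 49 came close to that in knockout 16, and wild type 45 led the wild-type libraries. Knockout 49 and wild type 45 were also the libraries with the highest sums of the 10 pituitary and oral epithelium genes, at 502 and 85.8 CPM, and with the highest Pitx1, a pituitary and oral ectoderm factor, at 116 and 8.98 CPM. The part of that tissue in the level of Pax6 was not tested.

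Dbx1, En2 and Pax7 were highest in knockout 50. Dbx1, which marks the progenitors of V0 interneurons, stood at 0.741, 3.30, 0.356, 0 and 8.63 CPM in the knockout libraries and 1.07, 0.0959, 0.0346, 0.171 and 0.880 CPM in the wild-type libraries. It was led by knockout 50 and knockout 29, was at 0.741 CPM in knockout 16 and at 0 counts in knockout 49, and the genotypes overlapped (log2 fold change 2.60, SE 1.07, edgeR adjusted p = 0.339). En2, a factor of the midbrain-hindbrain boundary and cerebellum, stood at 1.51, 2.05, 0.711, 1.74 and 6.46 CPM in the knockout libraries and 0.234, 0.128, 0, 0 and 1.87 CPM in the wild-type libraries. Only wild type 45 among the wild-type libraries exceeded 1 CPM, and that library overlapped the knockout range (log2 fold change 2.51, SE 1.08, edgeR adjusted p = 0.359). Pax7, found in dorsal progenitors, neural crest and muscle precursors, lay between 0.787 and 4.47 CPM in the knockout and between 0.277 and 2.14 CPM in the wild type.

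Zic1 and Zic2, zinc finger factors of the dorsal neural tube that are also active in head mesenchyme and meninges, were abundant in most libraries. Zic1 (ENSMUSG00000032368) stood at 239.7, 95.8, 175, 136 and 204 CPM in the knockout libraries and 94.0, 151, 10.8, 13.1 and 65.1 CPM in the wild-type libraries. Zic2 (ENSMUSG00000061524) stood at 79.8, 56.7, 121, 101 and 107 CPM in the knockout libraries and 61.4, 66.2, 7.59, 11.3 and 48.3 CPM in the wild-type libraries. Wild type 32 and 35 were the lowest for both genes, while wild type 24 for Zic1, and wild type 22 and 24 for Zic2, lay within the knockout range. Neither gene was called (log2 fold change 1.35, SE 0.62, edgeR adjusted p = 0.383 for Zic1, and log2 fold change 1.26, SE 0.53, edgeR adjusted p = 0.348 for Zic2). The mesenchyme and meninges list was lowest in the same libraries, at 731 and 1042 CPM, and highest in knockout 42, at 11077 CPM, where Zic2 was also highest. Other libraries ran otherwise. Zic1 was highest in knockout 16, where the list summed to 4110 CPM. Wild type 22 and knockout 50 had sums of 6282 and 6411 CPM, with Zic1 at 94.0 and 204 CPM. Without wild type 32 and 35, an alternative chosen after seeing the data, the log2 fold change was 0.76 for Zic1 and 0.71 for Zic2. The part of mesenchyme in the levels of Zic1 and Zic2 was not tested.

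For 2 members, Skor2 and Nkx6-1, every knockout library was above every wild-type library, beside 1.29% of all genes tested. No member lay entirely below the wild type, beside 2.92% of all genes. Skor2 (ENSMUSG00000091519), a corepressor known from Purkinje cell development, stood at 49.8, 182, 39.2, 42.9 and 57.2 CPM in the knockout libraries and 13.48, 20.97, 15.2, 20.1 and 11.1 CPM in the wild-type libraries. The knockout libraries lay between 39.2 and 182 CPM and the wild-type libraries between 11.1 and 20.97 CPM, with knockout 29 far above the other 4 knockout libraries. The difference missed the threshold narrowly (log2 fold change 2.201, SE 0.43, edgeR adjusted p = 0.0517), and it was called in 6 of 18 alternative settings. Knockout 29 was also the library with the highest Sox10, at 3764 CPM, and the highest sum of 10 ganglion glia genes, at 5330 CPM against 1398 to 2627 CPM elsewhere. The separation of the genotypes for Skor2 did not rest on that library, since the 4 other knockout libraries, at 39.2 to 57.2 CPM, were above all 5 wild-type libraries as well.

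Nkx6-1 (ENSMUSG00000035187), a homeodomain factor of ventral progenitors and of hindbrain visceral motor neurons, stood at 13.0, 5.90, 3.84, 2.32 and 6.64 CPM in the knockout libraries and 0.534, 1.69, 0.104, 0.171 and 0.634 CPM in the wild-type libraries. The knockout libraries lay between 2.32 and 13.0 CPM and the wild-type libraries between 0.104 and 1.69 CPM (log2 fold change 3.35, SE 0.69, edgeR adjusted p = 0.0645), with a call in 4 of 18 alternative settings. The lowest knockout level, in knockout 49, came from 8 counts. Knockout 42 had low levels of most members, with Pax2 at 0.178 CPM and Lhx1 at 0.320 CPM, yet its Nkx6-1 and Skor2 levels, at 3.84 and 39.2 CPM, were above those of every wild-type library.

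**Figure D2:**
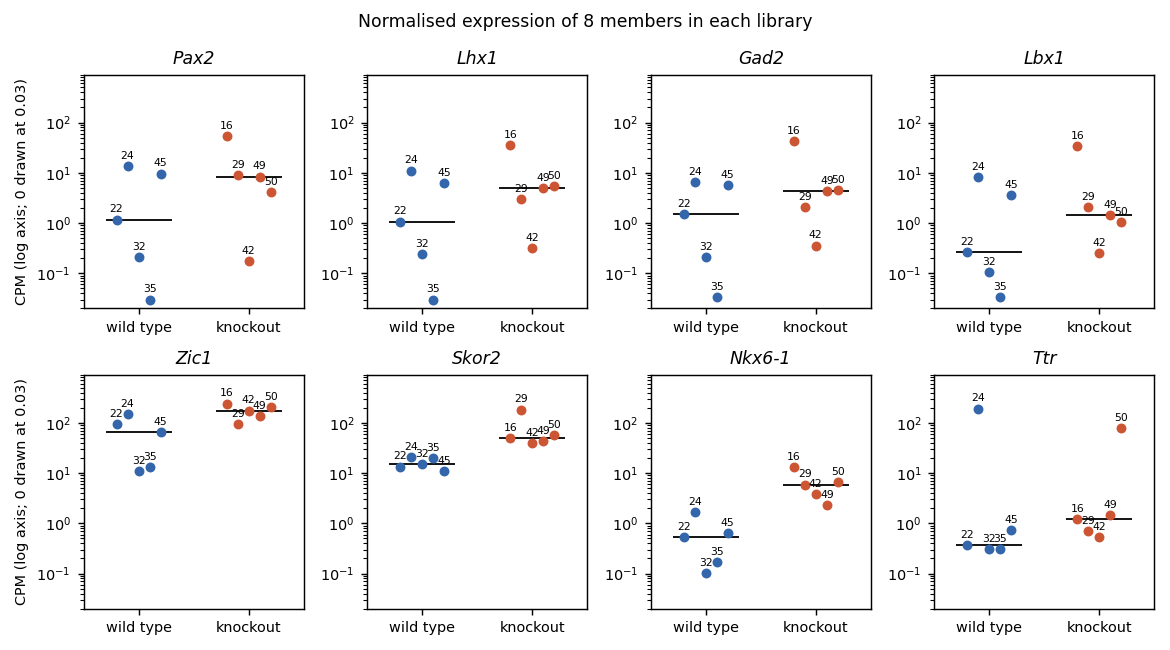
CPM of 8 members (log axis, 0 drawn at 0.03 CPM) in the knockout and wild-type libraries, 1 point per library labelled by its number, with a line at the median of each genotype. The genotypes do not overlap for Skor2 (39.2 to 182 against 11.1 to 20.97 CPM) and Nkx6-1, and they overlap for Pax2, Lhx1, Gad2, Lbx1, Zic1 and Ttr.

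Ttr (ENSMUSG00000061808), which encodes transthyretin and is the leading transcript of choroid plexus epithelium, stood at 1.22, 0.708, 0.533, 1.45 and 79.1 CPM in the knockout libraries and 0.367, 192, 0.312, 0.307 and 0.739 CPM in the wild-type libraries. A single library of each genotype held it, wild type 24 at 192 CPM and knockout 50 at 79.1 CPM, and the other 8 were between 0.307 and 1.45 CPM. It was not called (log2 fold change -1.18, SE 1.91, edgeR adjusted p = 0.813). Without Ttr, the other 10 genes of a choroid plexus list summed to 65.5 CPM in wild type 24, the highest, while knockout 50, at 36.5 CPM, was level with knockout 49, at 36.2 CPM, and near knockout 16, at 30.97 CPM. Folr1 and Otx2, choroid plexus genes singled out after their values were seen, were also highest there, with Folr1 at 2.05 and 1.40 CPM and Otx2 at 9.37 and 5.70 CPM. Wild type 24 was thus high for Ttr and next to the top for Pax2, Lhx1 and Lbx1, whereas knockout 16, the highest library for those interneuron genes, had 1.22 CPM of Ttr.

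Summed over the 35 members, the level was 986, 407, 352, 367 and 533 CPM in the knockout libraries and 207, 567, 42.9, 52.9 and 210.4 CPM in the wild-type libraries. The ratio of the means was 2.45. Its propagated SD of 2.703 carries the spread between libraries and is not the error of the ratio. The genotypes overlapped because wild type 24 exceeded 4 of the 5 knockout libraries. Ttr alone made up 192 CPM of the sum in wild type 24. Without Ttr the ratio was 2.89, and wild type 24 would exceed knockout 42 and knockout 49 only. The sum is weighted towards long and abundant genes: Zic1, Zic2, Skor2 and Ttr made up between 37.5% and 95.3% of it. Without these 4 genes, a split chosen after their values were seen, it was 616, 71.7, 16.4, 85.4 and 85.5 CPM in the knockout and 37.4, 137, 8.90, 8.06 and 85.1 CPM in the wild type. Knockout 16 then stood far above wild type 24, the next library, and knockout 42 lay among the lowest libraries, next to wild type 32 and 35. Of these 31 members, 24 were highest in knockout 16.

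Wild type 24 and knockout 16 held the members in different proportions. Over the 31 members with at least 30 counts in either of these libraries, the level in wild type 24 was a median of 22.9% of that in knockout 16, with a middle range of 10.9% to 42.1%. It was under 50% for 24 members and above 100% for Olig1, En1 and Ttr. Lhx1, Pax2, Lbx1, Evx1 and Skor1 lay close together, between 24.5% and 30.9%. The genes of the most dorsal interneuron class were spread from 4.17% for Barhl1 and 8.54% for Atoh1 to 10.3% for Lhx9, 15.03% for Barhl2 and 16.8% for Lhx2. Gad1, at 14.3%, Gad2, at 15.4%, and Slc6a5, at 10.3%, lay in the same range, and Olig3 was lower, at 2.54%. Zic1, at 63.0%, Pax8, at 79.4%, and Zic2, at 83.1%, were higher. Each of these rests on 1 library against 1, so the ratios describe the libraries and have no replicate error.

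Leaving out knockout 16 lowered the estimates of most members. The median log2 fold change of the 26 tested members went from 1.89 to 0.41, and 21 of them moved down. The sign changed for 7 members: Pax8 to -2.38, Lbx1 to -1.12, Lmx1b to -0.69, Lhx2 to -0.62, Lhx1 to -0.16, Slc6a5 to -0.16 and Gad2 to -0.03. Skor2, at 2.32, Nkx6-1, at 2.91, Dbx1, at 2.85, and En2, at 2.66, stayed above 2, and no member was called. The ratio of the summed levels moved less, from 2.45 to 1.92. In the other direction, leaving out wild type 24 raised the median to 2.56 and changed the sign of Ttr, to 5.34.

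**Figure D3:**
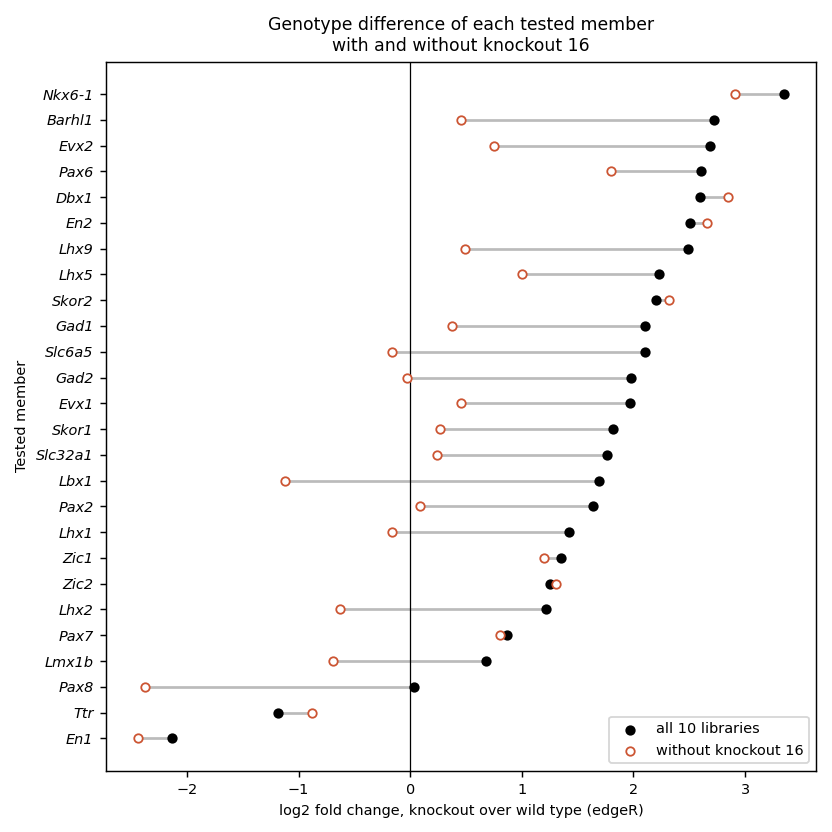
Log2 fold change, knockout over wild type, of the 26 tested members with all 10 libraries and without knockout 16, joined by a line per member. The median moves from 1.89 to 0.41, while Skor2 and Nkx6-1 stay above 2.

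Other ways of running the test called at most 3 members. DESeq2 called Barhl1, Nkx6-1 and Skor2 higher, where it called 2.15% of all genes higher. Limma-voom called Nkx6-1, beside 0.128% of all genes, and upper-quartile scaling called 1 member, beside 0.106%. With no filter on low counts 2 members were called (0.139% of genes), and with a filter at a mean of 1 CPM Skor2 was called (0.148%). Leaving out knockout 29 called Skor2 (0.125%), leaving out wild type 24 called Nkx6-1 (0.191%), and leaving out the shallow knockout 29 and 49, an alternative chosen after seeing the data, called Skor2 (0.032%). No setting called a member lower.

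Other gene lists placed the pattern among neighbouring tissues. Of 13 further dorsal hindbrain and spinal genes, 9 were highest in knockout 16, none of the 7 tested was called, and their median log2 fold change was 0.90. Among their more abundant members, Lmx1a, a roof plate factor, and Bhlhe22, a factor of dorsal interneurons, reached 7.11 and 8.12 CPM in knockout 16. Among 9 hindbrain segment genes, none of the 3 tested was called, and the sum was 37.2 CPM in knockout 16 against 3.04 to 16.4 CPM elsewhere. Hoxa2, Hoxb2 and Hoxb3, which pattern the front and middle hindbrain segments, were at 16.7, 6.88 and 8.12 CPM in knockout 16. Egr2, which cells of the Schwann lineage also express, was highest in knockout 29, at 12.6 CPM. Hoxb4 and Hoxa4, which mark the rear hindbrain and spinal cord and were singled out after their values were seen, were at 0.0593 and 0 CPM in knockout 16 and at 0.551 and 0.0787 CPM in knockout 29.

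Among 14 ventral hindbrain and spinal genes, 4 were highest in knockout 16 and none of the 6 tested was called. Lhx3, shared by motor neurons, V2 interneurons and the pituitary, was at 70.9 CPM in knockout 49 and 12.6 CPM in wild type 45, and at most 1.10 CPM elsewhere. Genes of cholinergic and motor neurons in this list, named after their values were seen, did not share a pattern. Slc18a3, the vesicular acetylcholine transporter, and Chat, which makes acetylcholine, were highest in knockout 16, at 10.1 and 4.001 CPM, and neither was called (adjusted p = 0.111 for Slc18a3 and 0.212 for Chat). Nkx6-2, a relative of Nkx6-1, failed the filter on low counts; it was at 6.25 CPM in knockout 16, and its genotypes did not overlap, by the narrow gap between 0.290 CPM in knockout 49, which is 1 count, and 0.282 CPM in wild type 45. Mnx1, a factor of somatic motor neurons, did not exceed 0.0667 CPM in any library. Of 16 forebrain and midbrain genes, 1 was highest in knockout 16 and none of the 9 tested was called. That gene was Neurod6, at 55.8 CPM. Among 9 neural tube progenitor genes, 5 were highest in knockout 16, and none was called. Their sum, led by Fabp7, Nes, Slc1a3 and Sox2, which ganglion glia also express, was 1063 CPM in knockout 16 and 551 to 1106 CPM elsewhere.

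Lists of other tissues that express single members had their own order of libraries. The sum of 12 inner ear genes was highest in knockout 29, at 250.4 CPM, and was 129 CPM in knockout 16. That of 12 skeletal muscle genes was highest in wild type 22, at 295 CPM, then in wild type 45, at 168 CPM, and in knockout 16, at 139 CPM. The sum of 12 mesenchyme genes was 4110 CPM in knockout 16, which lies inside the range of the other libraries. None of the genes tested in these lists was called, 11 for the inner ear, 10 for muscle and 12 for mesenchyme. None was called either in the choroid plexus, pituitary and ganglion glia lists, with 9, 5 and 10 genes tested. Of 7 vagal and autonomic genes tested, Gata3 was called higher (2.07) and Th lower (-2.03).

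**Figure D4:**
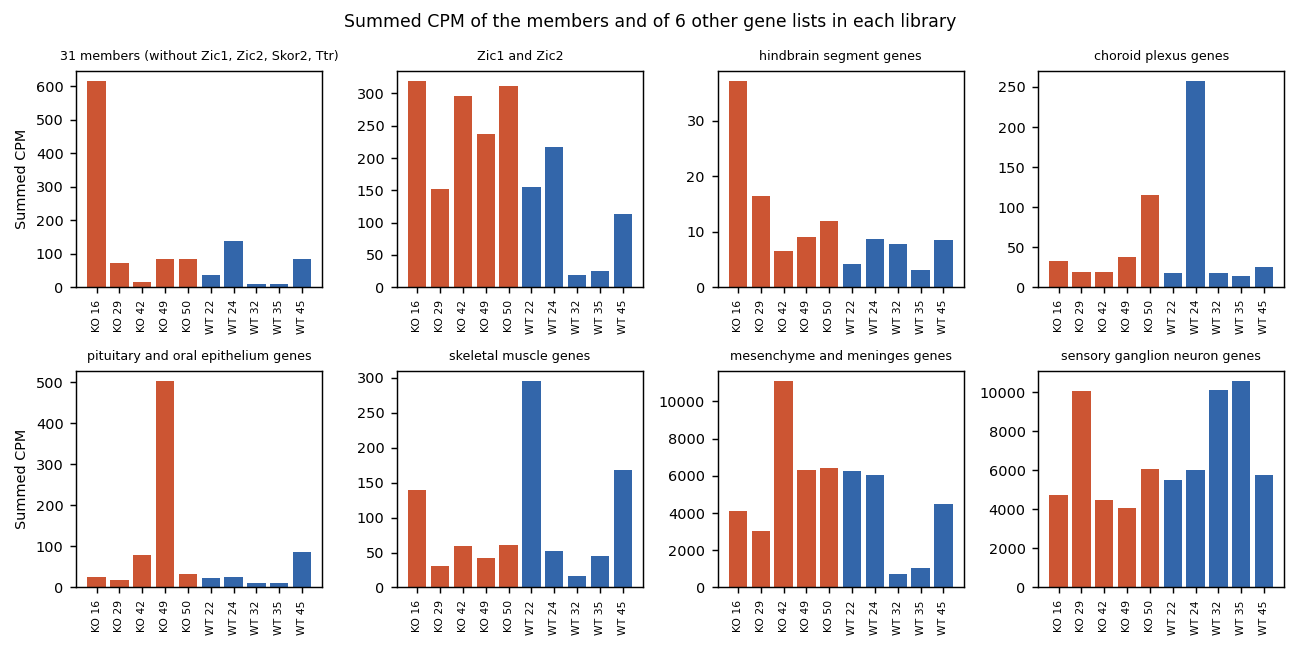
Summed CPM of 31 members (without Zic1, Zic2, Skor2 and Ttr), of Zic1 with Zic2, and of 6 other gene lists in each of the 10 libraries, with 1 bar per library and each panel on its own axis from 0. Knockout 16 stands out for the 31 members (616 CPM) and the hindbrain segment genes (37.2 CPM), but not for the mesenchyme, muscle or sensory neuron lists.

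Genes outside the set with the same order of leading libraries were few. Knockout 16, wild type 24 and knockout 50 were the highest libraries, in that order, for 32 of the 15551 other genes with a mean of at least 1 CPM, as they were for the summed members. The 10 of these with the largest ratio of the highest library to the median of the 10 libraries were Mlc1, Pou3f2, Gm14204, Gm17750, Wnt7b, Elfn2, 1500009C09Rik, Lrtm2, Caly and Gjd2. Mlc1, a membrane protein of brain astroglia, had a ratio of 31.5, from 11.9 CPM in knockout 16. Pou3f2, a POU-domain factor of central neurons, had a ratio of 15.7, with 77.9 CPM in knockout 16 followed by 15.6 CPM in wild type 24 and 11.8 CPM in knockout 50. Gjd2, which encodes the gap junction protein of neurons, had the lowest ratio of the 10, at 4.88. The likeness is one of order over 10 libraries and was not tested.

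For 9 members an exon overlaps a gene on the opposite strand, among them Zic1 with Zic4, Evx1 with Evx1os and Slc32a1 with Gm14205. With the strand setting of the counting not given in the sources used here, the reads of these pairs cannot be told apart.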

How the data were processed

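RNA sequencing was compared between 5 knockout and 5 wild-type libraries, grouped by the genotype label. Each deposited file lists raw counts by Ensembl gene. Per the submitters' processing notes, the authors used STAR 2.7.10a, featureCounts 1.5.0-p1 and bcl2fastq 2.20.0.422 and the builds GRCm39 and mm10, with no roles stated. The strand setting, the annotation release and the handling of multi-mapping reads were not given in the sources used here. Symbols were matched for 52081 of 55414 identifiers, and Drgx through a RefSeq synonym.

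Genes were kept with filterByExpr (minimum count 10), which left 18005, and scaled with TMM factors. Knockout was tested against wild type by edgeR's quasi-likelihood method with p-values adjusted by Benjamini-Hochberg across all kept genes, at a threshold of 0.05. Unless another tool is named, adjusted p-values come from this test. The SE is the absolute log2 fold change divided by the square root of the F statistic. The procedure was tested on simulated data. The software was edgeR 4.0.16, DESeq2 1.42.0 and limma 3.58.1 under R 4.3.3. Levels based on few counts, above all in knockout 49, are imprecise, and the floor of 3 counts covers counting error only. In 20 pairs of libraries of the same genotype the chi-square per gene was at least 11.9 over genes with at least 200 counts, so none was a duplicate.

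The members and the other lists were chosen with earlier results of these data known. The text names all 35 members, list genes past the threshold, up to 4 genes per list with the highest mean, and Prdm12. It also names 10 genes that share the order of leading libraries of the summed members. Other genes were chosen after their values were seen, as stated where they appear. Alternatives were other scaling factors, DESeq2, limma-voom, 2 other filters, each library left out, and sets of libraries or genes left out after seeing the data. Promoter sequences are from RefSeq, and no promoter of Ttr or protein sequence was used here. Some genes of the other lists are not reported here.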

Additional observations from a re-analysis of the deposited data

Results flagged for a closer look

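In 32 of 72 groups of 5 libraries, a single library lay so far from the other 4 that its gap to the nearest of them exceeded 0.71 of the whole range of the group. The rule flags about 1 in 20 groups when values follow a normal distribution. These CPM values are skewed and some rest on few counts, so that rate is no baseline here. Members that move together are also not independent groups. In 22 of the 32, the library was knockout 16, which was the highest knockout library.

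In that library the interneuron factors stood apart as follows, in CPM: Pax2 at 53.6, Pax8 at 4.83, Lhx1 at 35.7, Lhx2 at 58.5, Lhx5 at 21.3 and Lhx9 at 46.1. The same held for Lbx1 at 34.0, Evx1 at 23.5, Evx2 at 8.03, Barhl1 at 17.6, Barhl2 at 3.62, Lmx1b at 40.8 and Skor1 at 58.9. Among the progenitor factors it held for Olig2 at 4.95, Olig3 at 13.8, Atoh1 at 12.4 and Gbx2 at 8.51, and among the transmitter genes for Gad1 at 38.9, Gad2 at 42.6, Slc32a1 at 18.7 and Slc6a5 at 28.0. The summed level of the 35 members in knockout 16, at 986 CPM, was flagged as well.

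Knockout 29 stood apart for Nkx2-2 at 0.157 and Skor2 at 182 CPM, and the value for Nkx2-2 rests on fewer than 3 counts. Knockout 50 stood apart for En2 at 6.46 and Ttr at 79.1 CPM. Among the wild-type libraries, number 24 stood apart for Olig3 at 0.352, Nkx2-2 at 0.128, Atoh1 at 1.05 and Ttr at 192 CPM, and number 45 for Pax6 at 4.19 and En2 at 1.87 CPM.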

How the results depend on the processing

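No paired analysis was possible because the genotypes share no replicate number. Over 18 alternative settings, the log2 fold changes of the 26 tested members gave 468 values, of which 441 kept their direction and their side of the threshold, 11 passed the threshold, and 16 turned direction; 17 members never turned. No setting moved the median over all genes by more than 0.1. The cause of the changes below was not tested.

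The number of members called higher was 1 with upper-quartile factors, 3 with DESeq2, 1 with limma-voom, 2 with no filter, 1 with a filter at a mean of 1 CPM, 1 without knockout 29 and 49, and 0 to 1 when single libraries were left out. Genes called higher numbered 388 with DESeq2, 55 with no filter and 6 without knockout 29 and 49. Without wild type 32 and 35 edgeR called 0 higher and 19 lower, with 1237 genes at an unadjusted p under 0.05 in either direction. Both of these exclusions were chosen after seeing the data. Genes called lower numbered 236 with DESeq2 and 102 with no filter. Leaving out single libraries gave 2 to 35 higher and 27 to 88 lower, and a median log2 fold change of the members of 0.41 to 2.56.

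With limma-voom the log2 fold change turned for Pax8 (-0.048), Lhx2 (-0.18), En1 (0.23) and Ttr (0.82), and without wild type 32 and 35 for Pax8 (-0.65). With single libraries left out, the range was -2.38 to 1.02 for Pax8, -0.16 to 2.44 for Lhx1, -0.62 to 1.53 for Lhx2, -1.12 to 3.04 for Lbx1, -0.029 to 2.62 for Gad2, -0.16 to 3.01 for Slc6a5, -0.69 to 1.55 for Lmx1b and -5.42 to 5.34 for Ttr. The ratio of the summed levels was 1.92 to 4.13 with single libraries left out, within the spread between libraries. Prdm12 was called in 15 of 18 settings. Depth limits knockout 49, where 11 members had fewer than 3 counts.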

Other observations

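Robo3, a guidance receptor of commissural axons in the hindbrain and spinal cord, had the largest ratio of knockout 16 to the median of all libraries, at 103, among the genes outside the set with a mean of at least 1 CPM that were highest in that library. It was chosen after its values were seen. Robo3 stood at 591, 55.1, 0.498, 4.92 and 51.5 CPM in knockout 16, 29, 42, 49 and 50, and at 6.54, 4.92, 0.727, 0.341 and 7.36 CPM in wild type 22, 24, 32, 35 and 45. The genotypes overlapped, and the log2 fold change of 5.15 (SE 1.52) was not called (adjusted p = 0.197). Its order differed from that of the summed members, since knockout 29 and 50 followed knockout 16 and wild type 24 did not stand out.

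Tbx20 and Lhx4 were also highest in knockout libraries, and both were singled out by their values or by their place in a list. Tbx20, a factor of hindbrain branchial and visceral motor neurons, reached 22.5 CPM in knockout 16, while the remaining knockout libraries had 0.349 to 4.05 CPM. Lhx4, a factor of motor neurons and the pituitary, was at 13.4 CPM in knockout 16 and at 24.6 CPM in knockout 49. Neither was called (adjusted p = 0.21 for Tbx20 and 0.14 for Lhx4).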
